A study of Mus musculus with 4 samples.

Results

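The genes described here are those of the red cell lineage: globins, enzymes of haem synthesis, proteins of the red cell membrane, and the transcription factors and receptors of erythroid cells. They were chosen by symbol, as a list of 36 genes, of which 35 were among the 18276 genes of the deposited table. The globin chaperone gene Ahsp was not analysed here. The libraries hold poly(A) RNA of osteoclast progenitors, which were sorted from the bone marrow of B6;129 mice by the presence of CD115 and the absence of Mac-1, B220 and CD3. In 2 libraries (Ptip_KO), the mice were Ptip flox/flox Mx-1Cre, with floxed alleles of the histone methylation regulator gene Ptip (symbol Paxip1) and Cre under the interferon-inducible Mx-1 promoter. In the other 2 libraries (WT), the mice were Mx-1Cre with wild-type Ptip, so that both groups carried the Cre transgene. The Mx-1 promoter is active in many cell types, so deletion in this design is not limited to osteoclast progenitors, and the labels used here give neither age nor how Cre was induced. No erythroid surface marker is named among those of the sort.

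Red cells arise from progenitors that carry the transcription factors GATA1 and TAL1 and then the erythropoietin receptor. Under GATA1 and KLF1, the maturing erythroblast takes up iron through the transferrin receptor, makes haem in a pathway that starts with ALAS2 in the mitochondrion, and fills with haemoglobin built from alpha and beta globin. At the same time it builds a membrane in which band 3 (Slc4a1) and the Rh proteins are tied to a skeleton of spectrin, ankyrin and protein 4.1 and 4.2. In bone marrow, erythroblasts mature around a central macrophage, and immature red cells keep much of their globin RNA after other transcripts are gone.

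Values are the authors' CPM, reads scaled by an adjusted library size, which correct for depth but not for gene length. The libraries held 67592972 to 77773478 reads, and the lowest value among the 35 members, that of Epor in Ptip_KO replicate 1, still rested on 72 reads. Paxip1, the deleted gene, was at 5.10 and 3.73 CPM in Ptip_KO libraries, against 106 and 103 CPM in WT libraries (log2 fold change -4.29, SE 0.144, limma adjusted p = 0.000383). Csf1r, which encodes the CD115 of the sort, was at 825 and 782 CPM in Ptip_KO libraries, against 677 and 606 CPM in WT libraries. Cd3e stayed at or under 0.190 CPM in each library, while Itgam, which encodes Mac-1, was at 35.1 to 42.1 CPM. WT replicate 2 stood apart with 298 CPM of Xist and 0.101 CPM of the Y-linked Ddx3y, against at most 0.0814 CPM of Xist and at least 69.1 CPM of Ddx3y in the other 3 libraries. By these genes WT replicate 2 came from a female and the other 3 libraries from males, so sex was not balanced between the genotypes. Its effect on the members was not tested. Counts of calls, and calls of named members, are therefore also given without WT replicate 2 where they differ. The labels do not say whether the replicates were separate animals. The WT libraries differed in Xist and Ddx3y as no library pair of 1 animal would, while the spread between the Ptip_KO libraries may be technical. An exact permutation of 2 against 2 samples cannot go below a two-sided p of 0.333.

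Most erythroid genes were lower in Ptip_KO. Of 35 members tested, 19 fell at an adjusted p under 0.05 (limma, Benjamini-Hochberg over all 12357 genes tested), where 3.86% of all tested genes fell. Of the members, 0 rose, where 2.43% of all tested genes rose, and the count of higher members was likewise 0 by edgeR, by DESeq2 and without adjustment at a p of 0.05. The log2 fold change was below 0 in 34 of 35 members (49.5% of all tested genes), with a median of -1.41, against 0.00320 over all tested genes. In 32 members both Ptip_KO libraries lay below both WT libraries, as did 27.3% of all tested genes. These are bulk libraries, in which fewer erythroid cells and less erythroid RNA per cell cannot be told apart.

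The number of members that fell depended on the scaling and on the estimate of spread. It was 6 after rescaling to a common sum (2.66% of all tested genes), 10 by edgeR with TMM on the recovered reads (3.37%), 12 with median-of-ratios factors (3.44%), 12 with a robust variance prior (4.2%), 27 by DESeq2 (9.11%) and 32 without WT replicate 1 (7.36%). With WT replicate 2 left out 25 members fell (7.45%), and with Ptip_KO replicate 1 left out, 14 (2.74%). The direction of 33 members was negative under each alternative that could be run for them, 15 for most. The exceptions were Hbb-bt and Nfe2.

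**Figure D1:**
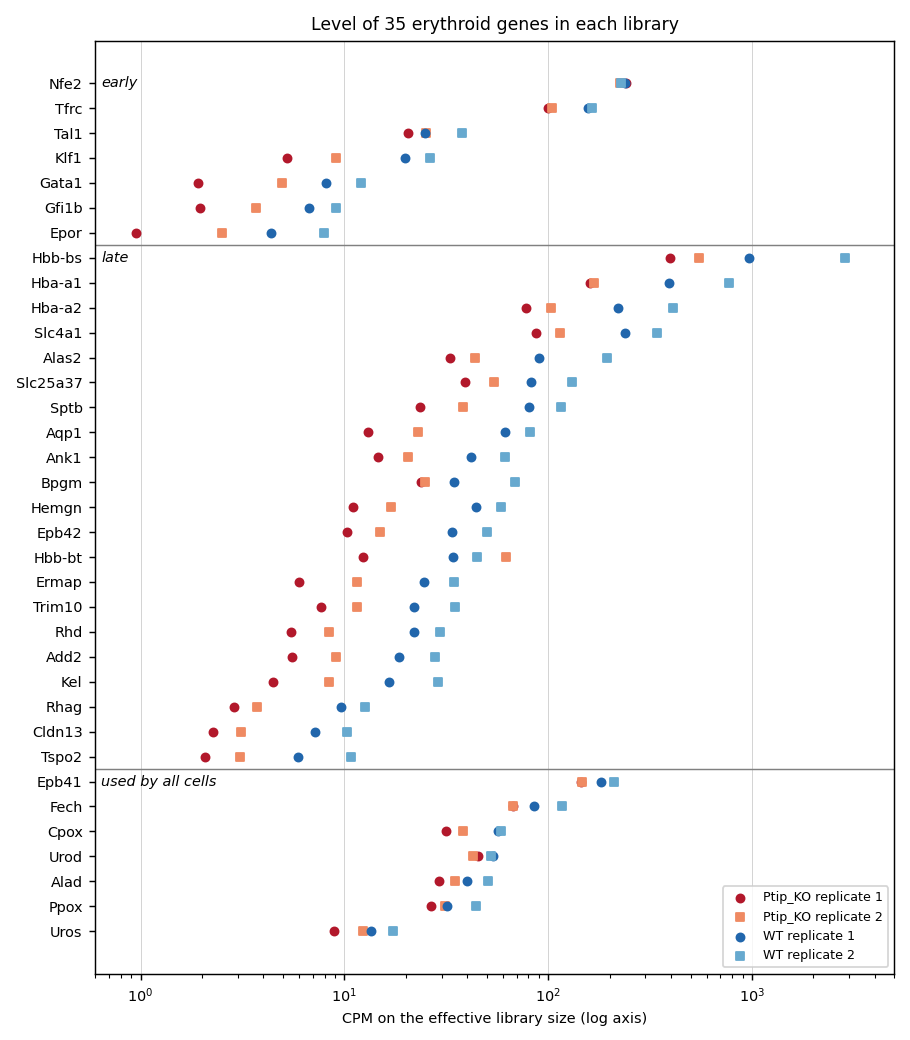
CPM of the 35 erythroid genes (log axis) in 2 Ptip_KO libraries (red and orange) and 2 WT libraries (dark and light blue), grouped as early, late, or used by all cells. Values are not divided by gene length, so only points on one line can be compared. In 32 genes both Ptip_KO points lie left of both WT points.

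The highest levels were those of 3 of the 4 globins. Per kilobase of exon, Hbb-bs was highest, at 613 CPM per kilobase in Ptip_KO and 2487 in WT, followed by Hba-a1 at 201 and 714 and Hba-a2 at 135 and 470.5, and this order was the same in both groups. The coding sequences of the alpha globin genes Hba-a1 and Hba-a2, which sit side by side on chromosome 11, differ at 1 of 429 bases, and those of the adult beta globin genes Hbb-bs and Hbb-bt on chromosome 7 differ at 1 of 444 bases. Stretches of 60 coding bases around each difference show how little a read within the coding sequence has to tell the copies apart. Untranslated ends are not shown. The differing base is in capitals (GENCODE M21 transcripts, bases 352 to 411 of the alpha and 385 to 444 of the beta globin reading frame).
Hba-a1: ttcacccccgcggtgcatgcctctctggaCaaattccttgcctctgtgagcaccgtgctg
Hba-a2: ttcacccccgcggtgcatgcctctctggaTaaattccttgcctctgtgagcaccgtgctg
Hbb-bs: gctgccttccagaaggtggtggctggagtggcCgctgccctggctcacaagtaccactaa
Hbb-bt: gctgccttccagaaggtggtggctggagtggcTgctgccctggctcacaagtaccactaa
Counts of the single copies are uncertain for this reason, and how reads that fit both copies were handled is not given in the sources used here.

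Both alpha globin genes fell. Hba-a1 (chromosome 11, 32283511 to 32284465, mm10) was at 159.9 and 167 CPM in Ptip_KO libraries, against 390.1 and 769.8 CPM in WT libraries. Its Ptip_KO replicates lay close together, the WT replicates far apart, and the groups did not overlap (log2 fold change -1.74, SE 0.302, limma adjusted p = 0.0335). Hba-a2 was at 77.6 and 103 CPM in Ptip_KO, against 219.6 and 408 CPM in WT, with a log2 fold change of -1.73 and the same adjusted p to 3 digits. Both lost the call after rescaling to a common sum, with median-of-ratios factors, with a robust variance prior and by edgeR with TMM, with adjusted p up to 0.0681 for Hba-a1 and 0.0693 for Hba-a2.

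Neither beta globin gene passed the test. Hbb-bs (chromosome 7, 103826534 to 103828096) was at 394 and 548 CPM in Ptip_KO libraries, against 966 and 2853 CPM in WT libraries. The groups did not overlap, the WT libraries lay far apart, and the gene did not pass (log2 fold change -1.83, SE 0.494, limma adjusted p = 0.0927), though it passed with either WT library left out. Hbb-bt (103812524 to 103813996) was at 12.3 and 61.8 CPM in Ptip_KO, against 34.3 and 44.8 CPM in WT. Ptip_KO replicate 2 was the highest library and Ptip_KO replicate 1 the lowest, so the WT libraries lay between them (log2 fold change -0.48, SE 0.679, limma adjusted p = 0.726). Without Ptip_KO replicate 1, its log2 fold change turned to 0.64 and did not pass, and without Ptip_KO replicate 2 it was -1.60 and passed (limma adjusted p = 0.00487).

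The share of Hbb-bt in the reads of both beta globins showed the same library. It was 3.02% (95% Wilson interval 2.84 to 3.22) and 10.1% (9.86 to 10.4) in Ptip_KO replicates 1 and 2, against 3.43% (3.298 to 3.561) and 1.55% (1.497 to 1.598) in WT replicates 1 and 2. These intervals cover counting error only. Hba-a2 took 32.7% and 38.2% of the alpha globin reads in Ptip_KO, and 36.02% and 34.6% in WT, a narrower range. The ratio of summed alpha to summed beta globin CPM was 0.584 and 0.443 in Ptip_KO and 0.609 and 0.406 in WT, so the groups overlapped in it.

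**Figure D2:**
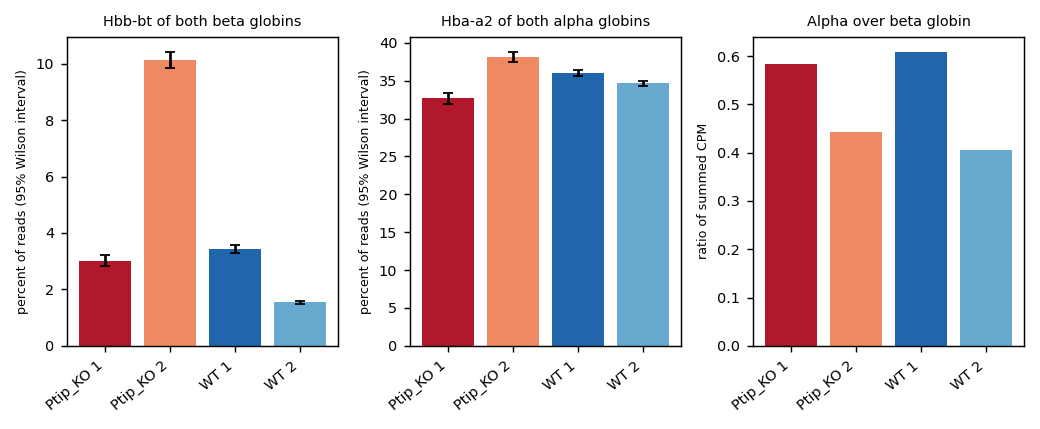
Share of Hbb-bt in the reads of both beta globin genes, share of Hba-a2 in the reads of both alpha globin genes (percent, with 95% Wilson intervals), and the ratio of summed alpha to summed beta globin CPM, in each library. The bar of Hbb-bt is highest in Ptip_KO replicate 2, at 10.1%.

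To show what lies upstream of these genes, the 250 bases before the RefSeq transcript start (GRCm38.p6) are printed for 3 globins, the haem enzyme gene Alas2, and the early genes Klf1 and Epor, 5′ to 3′ along the gene. Capitals mark 2 motifs, on either strand: the GATA words (AGATAA or AGATAG, or the same with T as the initial letter), which GATA factors are known to bind, and CCNCNCCC, the CACCC box that KLF factors are known to bind.
Hba-a1 (chr11:32283422-32283671, plus strand): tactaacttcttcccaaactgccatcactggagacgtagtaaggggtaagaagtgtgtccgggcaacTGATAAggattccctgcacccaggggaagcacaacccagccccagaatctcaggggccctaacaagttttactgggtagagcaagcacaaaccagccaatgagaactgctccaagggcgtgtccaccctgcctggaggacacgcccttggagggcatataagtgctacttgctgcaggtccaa
Hbb-bs (chr7:103827929-103828178, minus strand): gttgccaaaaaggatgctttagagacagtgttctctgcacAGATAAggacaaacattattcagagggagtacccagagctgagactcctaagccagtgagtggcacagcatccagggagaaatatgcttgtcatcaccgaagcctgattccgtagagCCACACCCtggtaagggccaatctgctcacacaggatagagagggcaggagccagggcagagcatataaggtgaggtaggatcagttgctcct
Hbb-bt (chr7:103813924-103814173, minus strand): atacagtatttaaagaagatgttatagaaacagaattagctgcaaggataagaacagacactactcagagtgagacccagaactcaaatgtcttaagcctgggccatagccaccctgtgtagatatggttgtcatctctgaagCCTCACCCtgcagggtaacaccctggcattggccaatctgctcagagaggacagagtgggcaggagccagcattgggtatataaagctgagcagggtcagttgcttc
Alas2 (chrX:150547167-150547416, plus strand): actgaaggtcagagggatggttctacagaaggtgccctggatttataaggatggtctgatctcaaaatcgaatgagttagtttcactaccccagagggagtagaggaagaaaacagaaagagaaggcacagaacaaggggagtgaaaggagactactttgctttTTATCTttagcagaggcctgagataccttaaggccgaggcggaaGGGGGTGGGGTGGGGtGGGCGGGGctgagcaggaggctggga
Klf1 (chr8:84901732-84901981, plus strand): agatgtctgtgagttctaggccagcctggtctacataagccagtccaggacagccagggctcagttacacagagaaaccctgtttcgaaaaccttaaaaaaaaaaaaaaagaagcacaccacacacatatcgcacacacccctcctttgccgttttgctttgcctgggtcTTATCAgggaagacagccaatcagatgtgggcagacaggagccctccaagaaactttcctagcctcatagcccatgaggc
Epor (chr9:21963577-21963826, minus strand): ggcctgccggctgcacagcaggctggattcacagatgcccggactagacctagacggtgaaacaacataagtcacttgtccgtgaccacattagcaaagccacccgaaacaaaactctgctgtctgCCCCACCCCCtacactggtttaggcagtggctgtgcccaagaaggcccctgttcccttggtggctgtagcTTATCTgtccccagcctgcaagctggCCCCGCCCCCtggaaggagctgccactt
Hbb-bs held a GATA word 210 bases and a CACCC box 93 bases before the start, and Hbb-bt a CACCC box 107 bases before it and no GATA word in this window. Of the 35 members measured, 29 had a RefSeq promoter entry, some with several starts, in all 35 windows. A GATA word stood in 19 of them (54.3%), against 26.5% of the 32851 windows of all genes, and in 12 of 17 windows of late, 4 of 8 of early and 3 of 10 of broadly used genes. The CACCC box stood in 20 of 35 (57.1%), against 45.9% of all windows, and a CCAAT box (CCAAT, not in capitals here) in 19 of 35 (54.3%), against 33.8%. The CCAAT box was in 9 of 17 late, 3 of 8 early and 7 of 10 broadly used windows. A window with several or overlapping matches was counted once, and no site was tested for binding.

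Of the 7 genes of haem synthesis, 2 fell, the erythroid first step and 1 of the enzymes that every cell uses. Alas2, the erythroid form of the first and rate-limiting enzyme (chromosome X, 150547375 to 150570638), was at 33.1 and 43.7 CPM in Ptip_KO libraries, against 90.6 and 195 CPM in WT libraries. It fell (log2 fold change -1.78, SE 0.354, limma adjusted p = 0.0473), close to the threshold, and lost the call under 6 of 15 alternatives, leaving out Ptip_KO replicate 1 among them (adjusted p = 0.0646), with adjusted p from 1.53e-05 to 0.112. Cpox, which makes protoporphyrinogen, was the only one of the other 6 enzyme genes to fall, with 31.4 and 38.1 CPM in Ptip_KO, against 56.4 and 58.9 CPM in WT (log2 fold change -0.72, limma adjusted p = 0.0287). Cpox lost the call without Ptip_KO replicate 1 and after rescaling to a common sum, with adjusted p up to 0.0971. The other 5 had log2 fold changes from -0.56 to -0.26 and did not pass, though without WT replicate 1 all of them but Urod passed. Fech, which inserts iron into the ring, was at 67.6 and 66.9 CPM in Ptip_KO, against 84.8 and 117 CPM in WT. Urod, which decarboxylates uroporphyrinogen, differed least, with 45.3 and 42.7 CPM in Ptip_KO, against 53.7 and 52.4 CPM in WT. In Alad, Uros, Ppox, Fech and Urod too, both Ptip_KO libraries lay below both WT libraries.

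Of the 2 genes of iron uptake, 1 fell. Tfrc, the transferrin receptor that dividing cells of all kinds carry, was at 99.4 and 104 CPM in Ptip_KO libraries, against 157 and 164 CPM in WT libraries. The replicates were tight and the groups apart (log2 fold change -0.65, SE 0.0845, limma adjusted p = 0.0165). With either Ptip_KO library left out the call was lost, with adjusted p up to 0.0795. Slc25a37, the mitochondrial iron importer mitoferrin-1, was at 39.0 and 54.4 CPM in Ptip_KO libraries, against 82.2 and 131 CPM in WT libraries (log2 fold change -1.15, limma adjusted p = 0.0591), and did not pass. Without WT replicate 2 it passed (adjusted p = 0.0106), as it did without WT replicate 1 (adjusted p = 0.000364).

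Of the 6 genes of the membrane skeleton and its anchor, 5 fell. Slc4a1, the anion exchanger band 3 (chromosome 11, 102348824 to 102366203), was at 87.1 and 115 CPM in Ptip_KO libraries, against 238 and 341 CPM in WT libraries. Its groups were well apart (log2 fold change -1.50, SE 0.208, limma adjusted p = 0.0197), and it passed under all 15 alternatives. The beta spectrin gene Sptb was at 23.5 and 38.4 CPM in Ptip_KO, against 80.3 and 116 CPM in WT. The ankyrin gene Ank1 was at 14.6 and 20.6 CPM in Ptip_KO, against 41.9 and 61.5 CPM in WT, and Epb42, which encodes protein 4.2, at 10.3 and 14.9 CPM in Ptip_KO, against 33.6 and 50.2 CPM in WT. Add2, which encodes beta adducin, fell by 1.54 on the log2 scale. The sixth gene, Epb41, encodes protein 4.1, which is made in many tissues; it was at 144 and 147 CPM in Ptip_KO, against 182 and 212 CPM in WT (log2 fold change -0.43, limma adjusted p = 0.0727), and passed without WT replicate 1 (adjusted p = 0.0128). Sptb overlaps the protein-coding gene Plekhg3 on the opposite strand. In the same way Alas2 overlaps Apex2, Uros overlaps Bccip, Ppox overlaps B4galt3, Cpox overlaps Gpr15 and Epb41 overlaps Gm10300. Whether counting used strand is not stated.

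All 6 genes of surface proteins fell. Aqp1, the water channel of the red cell, had the lowest fold change of the members, with 13.1 and 23.0 CPM in Ptip_KO libraries, against 61.3 and 81.3 CPM in WT libraries (log2 fold change -1.96, SE 0.271, limma adjusted p = 0.0197). The Rh genes Rhd and Rhag encode membrane proteins of 1 complex. Rhd was at 5.46 and 8.45 CPM in Ptip_KO, against 21.9 and 29.5 CPM in WT. Rhag was at 2.88 and 3.74 CPM in Ptip_KO, against 9.61 and 12.7 CPM in WT. Kel, Ermap and Cldn13, which also encode erythroid membrane proteins, had log2 fold changes of -1.68, -1.69 and -1.39, with limma adjusted p between 0.0251 and 0.0493. Kel passed under 7 of 15 alternatives and lost the call without Ptip_KO replicate 1, among others, with adjusted p up to 0.0868. Aqp1 is also made by endothelial cells, so it is not a marker of red cells alone.

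Among the remaining late genes, Hemgn, a nuclear protein of blood progenitors and erythroblasts, was at 11.1 and 16.9 CPM in Ptip_KO libraries, against 44.5 and 58.6 CPM in WT libraries (log2 fold change -1.83, SE 0.223, limma adjusted p = 0.0146). Trim10, a tripartite motif gene of erythroid cells, fell by 1.46 on the log2 scale, and lost the call without Ptip_KO replicate 1, among others, with adjusted p up to 0.0761. Tspo2, a cholesterol-binding protein of erythroblasts, was at 2.08 and 3.07 CPM in Ptip_KO, against 5.94 and 10.7 CPM in WT and did not pass (limma adjusted p = 0.0546). Bpgm, which makes the 2,3-bisphosphoglycerate that lowers the oxygen affinity of haemoglobin, was at 23.8 and 24.8 CPM in Ptip_KO, against 34.5 and 68.8 CPM in WT (limma adjusted p = 0.127). The groups did not overlap, and WT replicate 2 was high. Without that library both Tspo2 and Bpgm passed (adjusted p = 0.0154 and 0.0314), and without WT replicate 1 as well (0.000535 and 5.71e-05). The 5 members that passed under all 15 alternatives were Aqp1, Hemgn, Rhag, Rhd and Slc4a1.

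**Figure D3:**
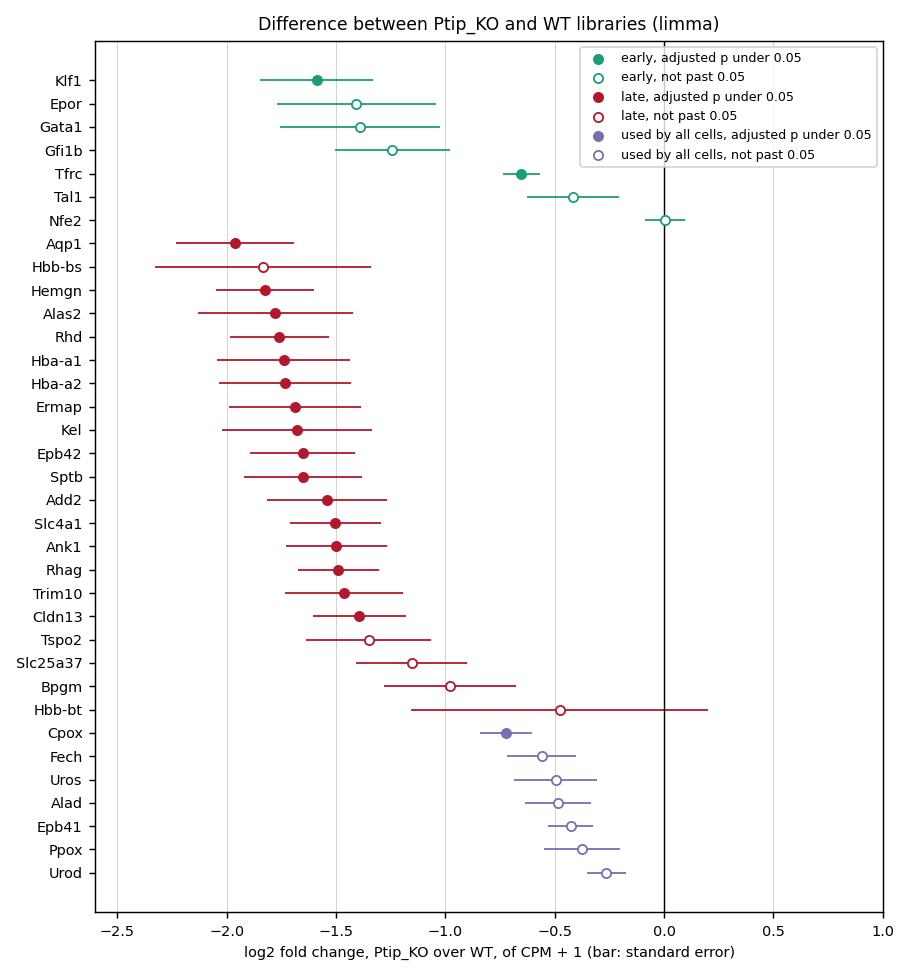
Log2 fold change of CPM + 1, Ptip_KO over WT, with its standard error, for early genes (green), late genes (red) and genes used by all cells (violet). Filled points passed an adjusted p of 0.05 by limma. Late genes other than Hbb-bt lie between -1.96 and -0.98, and broadly used genes between -0.72 and -0.26.

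Of the 7 early genes, Klf1 and Tfrc fell. Klf1, the factor that drives beta globin and many membrane genes (chromosome 8, 84901928 to 84905291), was at 5.23 and 9.13 CPM in Ptip_KO libraries, against 19.9 and 26.3 CPM in WT libraries, and fell (log2 fold change -1.59, SE 0.260, limma adjusted p = 0.0287). Klf1 lost the call after rescaling to a common sum and by edgeR with TMM, with adjusted p up to 0.0612. Gata1 was at 1.90 and 4.94 CPM in Ptip_KO, against 8.09 and 12.1 CPM in WT, and Gfi1b, a repressor needed for erythroid and megakaryocyte development, at 1.96 and 3.70 CPM in Ptip_KO, against 6.70 and 9.09 CPM in WT. Epor, the erythropoietin receptor, was at 0.946 and 2.51 CPM in Ptip_KO, against 4.34 and 7.99 CPM in WT. In these 3 genes the groups did not overlap, yet Ptip_KO replicate 2 was well above replicate 1, and none of the 3 passed (limma adjusted p = 0.0547 to 0.0872). Without WT replicate 2, Gata1 and Gfi1b passed (adjusted p = 0.0485 and 0.0231) and Epor did not (0.0518), and without WT replicate 1 all 3 passed, with adjusted p up to 0.00907. Tal1, which is also used by stem cells and megakaryocytes, was at 20.6 and 25.2 CPM in Ptip_KO, against 24.9 and 37.6 CPM in WT, with overlapping groups (log2 fold change -0.41, limma adjusted p = 0.301), and passed only without WT replicate 1 (adjusted p = 0.0126).

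Nfe2 was the member whose groups lay closest. It was at 242 and 226 CPM in Ptip_KO libraries, against 239 and 228 CPM in WT libraries (log2 fold change 0.00381, SE 0.0897, limma adjusted p = 0.985). NFE2 is a factor of megakaryocytes and myeloid cells as well as of erythroid cells. Per kilobase, Nfe2 came next after Hbb-bs, Hba-a1 and Hba-a2 among the members in both groups, with 78.3 CPM per kilobase in Ptip_KO and 78.1 in WT, which is above Slc4a1 (20.6 and 59.2) and Alas2 (16.0 and 59.4).

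By stage, 2 of 7 early genes (Klf1 and Tfrc), 16 of 21 late genes and 1 of 7 broadly used genes (Cpox) fell. Median log2 fold changes were -1.24 for early, -1.65 for late and -0.48 for broadly used genes. Without Tfrc, Nfe2 and Tal1, which other cells also use, the early median was -1.40, a subset chosen after the values were seen. The late median without globins was -1.54. For all 7 early genes the median was -0.72 with a pseudocount of 5, -0.95 with a minimum of 5 CPM and -1.45 with a pseudocount of 0.25. The broad median was -0.66 without WT replicate 1 and -0.32 without WT replicate 2. Stage was taken from general knowledge of the genes, but with earlier results of these data known. The difference between stages was not tested. The counts were 1 early and 5 late after rescaling to a common sum (2.66% of all tested genes fell), 1 and 8 by edgeR with TMM (3.37%) and 5 and 19 by DESeq2 (9.11%). Leaving out Ptip_KO replicate 1 gave 1 and 13 (2.74%), WT replicate 1, 6 and 20 (7.36%), and WT replicate 2, 4 and 20 (7.45%). The late count was 14 of 17 without the globins.

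The ratio of early factors to late genes overlapped between the groups. The summed CPM of Gata1, Gfi1b, Klf1 and Epor, a choice made after their values were seen, was 10.04 and 20.3 in Ptip_KO libraries, against 39.0 and 55.5 in WT libraries. As a percentage of the summed CPM of the 17 late genes without globins it was 3.44 and 4.95 in Ptip_KO and 4.68 and 4.29 in WT, and in this ratio the groups overlapped. Klf1 alone was at 6.004% and 7.97% of the Slc4a1 value in Ptip_KO and at 8.36% and 7.71% in WT. For the 4 globins summed, the ratio to Slc4a1 was 7.40 and 7.67 in Ptip_KO and 6.76 and 11.95 in WT, where WT replicate 2 was high.

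The members also ordered the libraries in the same way. In 30 of 35 members, Ptip_KO replicate 1 was lowest, followed by Ptip_KO replicate 2, WT replicate 1 and WT replicate 2, an order that 6.63% of all tested genes had. For the late genes, the median level relative to the gene's WT mean was 24.7% and 36.8% in Ptip_KO replicates 1 and 2, against 80.1% and 119.9% in WT replicates 1 and 2. Corresponding medians of the early genes were 24.8% and 49.0% in Ptip_KO, against 84.9% and 115% in WT. For broadly used genes they were 66.98% and 76.7% in Ptip_KO, against 88.0% and 112% in WT. The 2 libraries of each group thus differed in the erythroid genes as a block, by a median of 0.42 between the Ptip_KO and 0.47 between the WT libraries on the log2 scale, while the medians over all tested genes were -0.03 and -0.04.

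**Figure D4:**
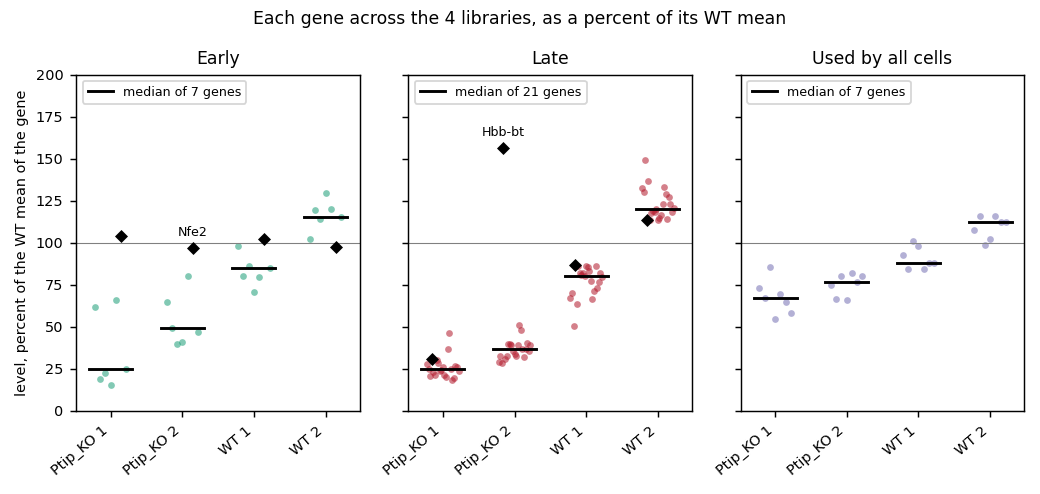
Level of each gene in each library as a percent of the gene's WT mean, for 7 early, 21 late and 7 broadly used genes. Points are genes, bars are medians over genes, and black diamonds mark Nfe2 and Hbb-bt. The late medians are 24.7% and 36.8% in Ptip_KO and 80.1% and 119.9% in WT.

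Of 60 further genes of erythroid biology, listed by function, 56 were in the table and 52 were tested, with a median log2 fold change of -0.23. Of these 52, 12 fell and 1 rose, where 3.86% of all tested genes fell and 2.43% rose. The shares of all tested genes under the settings that follow are given above with the members. The count that fell was 3 after rescaling to a common sum, 5 by edgeR with TMM, 7 with median-of-ratios factors, and 7, 20 and 17 with Ptip_KO replicate 1, WT replicate 1 or WT replicate 2 left out. Kit, the receptor of stem cell factor on early progenitors and mast cells, had the smallest p, with 14.4 and 16.1 CPM in Ptip_KO libraries, against 49.5 and 73.1 CPM in WT libraries (log2 fold change -1.91, SE 0.191, limma adjusted p = 0.00908). Carbonic anhydrase Car2, the factor Sox6, Nxpe2 and Tmcc2 fell by 1.63, 1.58, 1.69 and 1.03 on the log2 scale. Blvrb, a reductase of red cells, and Bcl2l1, which protects erythroblasts from cell death, fell by 0.76 and 0.82, and both lost the call without Ptip_KO replicate 1 (adjusted p up to 0.066 and 0.104), as did Tmcc2 (up to 0.073). Dmtn, Tmod1 and Cd24a fell too.

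Several partners of the early factors and of the erythropoietin receptor did not pass, and are named here after their values were seen. Lmo2 and Ldb1, which bind together with TAL1, had log2 fold changes of -0.08 and 0.08, and Lyl1 had 0.15. The kinase Jak2 and the factors Stat5a and Stat5b, all used by many blood cells, had -0.17, -0.04 and 0.04. Zfpm1, the GATA1 partner FOG1, was at 12.5 and 20.9 CPM in Ptip_KO, against 33.9 and 43.5 CPM in WT, close to the threshold without passing it (limma adjusted p = 0.0524). Alas1, the form of the first haem enzyme in other tissues, was at 306 and 311 CPM in Ptip_KO, against 298 and 369 CPM in WT (log2 fold change -0.11, limma adjusted p = 0.663). Bcl11a, a repressor of fetal-type globin that is also a B cell factor, was the 1 gene that rose, with 53.2 and 57.3 CPM in Ptip_KO, against 40.7 and 39.7 CPM in WT (limma adjusted p = 0.0479). It was not called by limma with a pseudocount of 5, after rescaling, with median-of-ratios factors or without either Ptip_KO library, nor by edgeR with TMM.

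Among markers of other cell types, some differed with genotype, some between replicates, and others little. Of 15 tested genes of the macrophage in erythroblastic islands, 7 fell and 0 rose (without adjustment 2 were higher at a p of 0.05, with edgeR 0 and with DESeq2 1), with a median of -1.04 and sums of 368 and 284 CPM in Ptip_KO, against 423 and 378 CPM in WT. Adgre1, which encodes F4/80, was at 8.67 and 6.79 CPM in Ptip_KO, against 90.5 and 51.7 CPM in WT, and the complement gene C1qa at 0.158 and 0.143 CPM in Ptip_KO, against 3.19 and 3.79 CPM in WT. The 7 that fell were Adgre1, Cd163, Mrc1, Axl, C1qa, C1qb and C1qc. Vcam1, Siglec1, Slc40a1, Hmox1 and Maea, of the same list, were not called by limma, and in Vcam1 and Hmox1 the groups overlapped. Spic, Mertk and Timd4 were too low to be tested. In Emp1, Dnase2a and Itgav both Ptip_KO libraries lay above both WT libraries, without a call by limma. Emp1 was at 70.6 and 6.55 CPM in Ptip_KO, against 2.14 and 1.31 CPM in WT, which raised the sum of Ptip_KO replicate 1. Maea, at 95.2 to 117 CPM, and Dnase2a, at 71.6 to 95.6 CPM, made up much of each sum. Neutrophil genes had a median of -0.90 over 9 tested, with 0 called by limma (without adjustment 3 were lower at a p of 0.05, with edgeR 0 and with DESeq2 3), and sums of 9408 and 10203 CPM in Ptip_KO, against 8353 and 12597 CPM in WT. Most of each sum was Mpo, at 7772 and 8481 CPM in Ptip_KO, against 5885 and 8162 CPM in WT. Mpo was the only one of the 9 with a log2 fold change above 0. S100a8 was at 287 and 183 CPM in Ptip_KO, against 503 and 884 CPM in WT (limma adjusted p = 0.0521). S100a9 was at 383 and 216 CPM in Ptip_KO, against 714 and 1242 CPM in WT (limma adjusted p = 0.0509). Megakaryocyte genes (4 of 15 tested, median -0.48) and mast cell and basophil genes (6 of 8, median -0.43) had 0 calls by limma, by edgeR, by DESeq2 or at an unadjusted p under 0.05. Their sums were 251 and 254 CPM and 162 and 261 CPM in Ptip_KO, against 239.9 and 254 CPM and 151 and 324 CPM in WT. In the table, 6 of 6 mast cell and basophil genes and 13 of 15 megakaryocyte genes were higher in replicate 2 of both groups, as most erythroid members were. So were 6 of 7 T and NK cell, 36 of 56 further erythroid and 5 of 9 neutrophil genes. The counts were lower for macrophage (7 of 18), B cell (2 of 7) and osteoclast progenitor and monocyte genes (1 of 10). Of all 12357 tested genes, 5146 were higher in replicate 2 of Ptip_KO and 5258 in that of WT, each group taken alone. The share of all genes higher in replicate 2 of both groups at once is not given here. The marker counts also include genes too low to be tested, so they have no matching background. The replicate numbers pair no samples by any label. Of 3 tested B cell genes 1 rose, Cd79b, and no T or NK cell gene reached the level for testing. Most of the megakaryocyte sum was Fli1, which many blood cells use. Of all these markers in the table, Cd3e and Cd8a alone were at 0 in a library, Ptip_KO replicate 1. Among 10 genes of osteoclast progenitors and monocytes, Kit and Flt3 fell and the median was -0.17. Whether the amounts of these other cells bear on the erythroid genes was not tested.

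**Figure D5:**
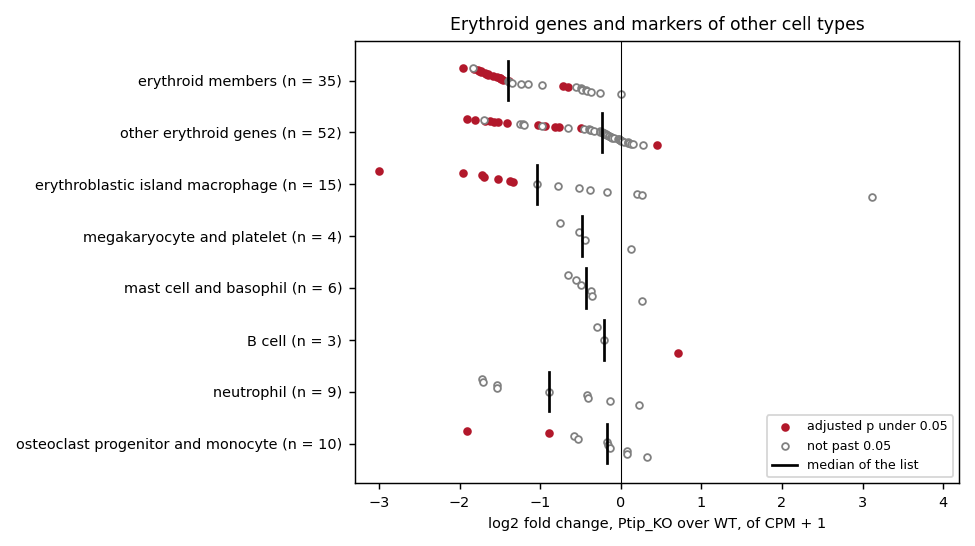
Log2 fold change of CPM + 1, Ptip_KO over WT, for the 35 erythroid members, 52 further erythroid genes and marker lists of other cell types. Points are genes, filled where the limma adjusted p was under 0.05, and the bar is the median of the list, at -1.41 for the members.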

How the data were processed

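Per the labels' protocols, libraries of poly(A) RNA were prepared with a stranded TruSeq kit. For the steps up to the deposited table, mm10, edgeR 3.8.6, HTSeq 0.6.0 and TopHat2 2.0.10 are named in the submitters' processing notes, with no role given. The table deposited by the authors holds a normalized signal, which per the file headers is edgeR CPM with effective library sizes. Every value was a whole multiple of its library's smallest value (100% within 0.01 read), so whole reads were recovered, and 1 read was worth 0.0127 to 0.0143 CPM. The WT column numbered 3 was matched by its description to WT replicate 2. Of 18276 identifiers, 92.19% carried the same version in GENCODE M21.

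A gene was tested if 2 or more libraries reached 1 CPM. The test was limma 3.58.1 (R 4.3.3) on log2(CPM + 1), two-sided, with genotype alone in the model, a trended variance prior, and p-values adjusted by Benjamini-Hochberg with a threshold of 0.05. This scale understates changes of low genes. All 35 measured members passed the filter, 34 of them with at least 1 CPM in all 4 libraries. Alternatives were pseudocounts of 0.25 and 5, other filters and scalings, a robust prior, a replicate block, each library left out, and edgeR 4.0.16 and DESeq2 1.42.0 on the recovered reads; late genes without globins were added after seeing the data. Members, stages and lists were chosen with earlier results of these data known. Named genes were Paxip1, all members, sort markers, called list genes and the 8 further erythroid genes with the smallest p; others were named after their values were seen, and some genes under this rule are not reported here. Reading frames are the longest in GENCODE transcripts. On data simulated for this comparison over 12357 genes, limma recovered 26.7%, 77.0% and 98.5% of genes changed by 1.5-, 2- and 4-fold, with 7 false calls. Each simulated gene was drawn independently, with a spread set by its mean level alone. Shifts that many genes share between replicates, as seen in the members, were not simulated, so these rates need not hold for the members. Replicates were not one library: chi-square per degree of freedom was 39.2 for Ptip_KO and 83.6 for WT.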

Additional observations from a re-analysis of the deposited data

How the results depend on the processing

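All counts below are of genes past an adjusted p of 0.05. Of all tested genes, 477 were lower and 300 higher as reported, against 1126 and 780 by DESeq2, and 339 to 920 lower and 113 to 700 higher without 1 library. Members that fell numbered 19, and 6 after rescaling to a common sum, 12 with median-of-ratios factors, 12 with a robust prior, 10 by edgeR with TMM and 14 to 32 without 1 library. Late genes that fell numbered 16, and 5, 9, 9 and 8 under those 4 settings and 13 to 20 without 1 library. Early genes that fell numbered 2, and 1 after rescaling, 1 by edgeR with TMM, 1 without Tfrc, 5 by DESeq2 and 1 to 6 without 1 library. Further erythroid genes that fell numbered 12, and 3 after rescaling, 7 with median-of-ratios factors, 5 by edgeR with TMM and 7 to 20 without 1 library. The 1 that rose was lost (0) with a pseudocount of 5, after rescaling, with median-of-ratios factors and by edgeR with TMM, and was 0 to 1 without 1 library. Members that rose stayed at 0 in every fit, and Paxip1 at -4.48 to -4.11 without 1 library. With edgeR on the authors' effective library sizes these counts stayed within 1.5 times the main ones. The cause of these shifts was not tested.

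Log2 fold changes without 1 library, where the lone sample of a group is assumed to vary like the other group, reversed for Hbb-bt without Ptip_KO replicate 1 (0.64; range -1.60 to 0.64) and for Nfe2 without Ptip_KO replicate 1 (-0.047) or WT replicate 2 (-0.03; range -0.047 to 0.055), none of these reversed values past the threshold. The replicate numbers pair no samples by any label, and the deviations of replicate 1 correlated at 0.332 between the groups over genes. With the replicate block, 1030 genes were lower and 691 higher, 5 early and 19 further erythroid genes fell, and 28 members. The median log2 fold change of all tested genes was 0.05 after rescaling and 0.00320 before it. At least 72 reads stood behind each member's value.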
